A study of Mus musculus with 4 samples.

Results

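The regions described here are places in the genome of mouse bone marrow progenitor cells that were rich in Tal1 and in Gata2 but poor in Ldb1 by chromatin immunoprecipitation and sequencing. They were chosen from the tag counts themselves, in bins of 500 bp along chromosomes 1 to 19. A bin was kept with at least 14 Tal1 tags, at least 11 Gata2 tags, at most 3 Ldb1 tags and at most 3 tags of the control IgG, and adjacent kept bins were joined. Of 4924853 bins, 1319 met these limits, or 0.0268%, and joining gave 1284 regions. Of these, 1251 were 1 bin long, 31 were 2 bins and 2 were 3 bins. Because the counts fixed the membership, the numbers of tags inside the bins are given as a description, and nothing is tested on them.

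Ldb1 (LIM domain binding protein 1) does not bind DNA itself. It is a cofactor that holds LIM-domain proteins and the DNA-bound factors attached to them in shared complexes and can bring distant elements together. Tal1, also called Scl, is a basic helix-loop-helix factor that recognises E-boxes, and Gata2 is a zinc finger factor that recognises GATA sites and is required in haematopoietic stem and progenitor cells. In blood cells Tal1 and GATA factors are known to meet in complexes with the LIM-only protein Lmo2 and Ldb1. Regions with Tal1 and Gata2 and few Ldb1 tags are therefore of interest as places with fewer tags of this cofactor than most bins rich in both factors.

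The cells were freshly isolated bone marrow cells freed of lineage-positive cells with magnetic beads, fixed with formaldehyde and not treated otherwise as far as the labels say. This fraction is enriched for progenitors but is a mixture of cell types, so tags of different factors in a bin need not come from the same cells. The sources used here do not give the age, sex or strain of the mice, or whether animals were pooled. Each of the 4 antibodies (Ldb1, Tal1, Gata2 and non-specific IgG) had 1 library, so no comparison has a replicate and no p-value is given. The 95% exact intervals cover counting error only. On chromosomes 1 to 19, with each position and strand counted once, there were 3866477 Ldb1, 8701045 Tal1, 5785973 Gata2 and 3401045 IgG tags, which is a mean of 0.785, 1.77, 1.17 and 0.691 tags per bin. Positions are in the genome build mm8. They were not placed in genes, exons or introns, since the gene table at hand is of another build, and no sequence is shown for the same reason.

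Ldb1 tag numbers did not fall into a low and a high group at bins rich in Tal1 and Gata2. A total of 7689 bins met the Tal1, Gata2 and IgG limits, and their Ldb1 count had a median of 8 (quartiles 5 and 13) and was most often 5. The kept bins were the low side of this single hump: 125 had no Ldb1 tag, 274 had 1, 389 had 2 and 531 had 3, together 17.2% of the 7689. Over all bins with a tag in any library, 97.1% had at most 3 Ldb1 tags and 1.44% had 4 or more IgG tags. The limit cut through a dense part of the distribution, since 548 bins had 4 Ldb1 tags. The 531 bins just inside and the 548 just outside had the same medians, with 19 Tal1, 14 Gata2 and 1 IgG tag. At the other limits, 189 kept bins had exactly 14 Tal1 tags and 186 missed the limit with 13, while 232 had exactly 11 Gata2 tags and 298 missed with 10. For IgG, 118 kept bins had 3 tags and 42 were left out with 4.

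**Figure D1:**
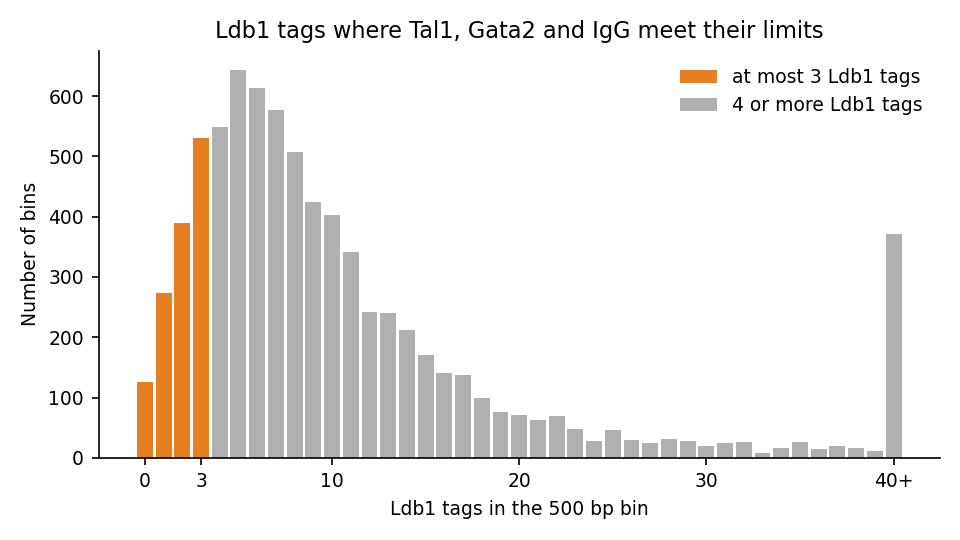
Number of 500 bp bins (y axis) by Ldb1 tags in the bin (x axis; the last bar holds the 372 bins with 40 or more) among the 7689 bins that met the Tal1, Gata2 and IgG limits. Orange bars are the 1319 kept bins with at most 3 Ldb1 tags, grey bars those with 4 or more; the counts form 1 hump with its top at 5 tags, and the limit lies on its rising side.

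Low Ldb1 counts went with low Tal1 counts more than with low Gata2 counts. Of the bins with 14 to 19 Tal1 tags, 28.8% (27.1 to 30.6) had at most 3 Ldb1 tags. This share was 17.6% (16.0 to 19.3) at 20 to 29 Tal1 tags, 10.4% (8.78 to 12.2) at 30 to 49, and 1.35% (0.828 to 2.08), or 20 of 1478 bins, at 50 or more. The median Ldb1 count over the same steps was 5, 7, 9 and 22. By Gata2, the share went from 21.2% (19.8 to 22.6) at 11 to 14 tags to 15.4% (14.03 to 16.8) at 15 to 21, 12.3% (10.6 to 14.3) at 22 to 39 and 6.76% (4.18 to 10.2) at 40 or more.

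With the other factor held in a narrow range, Tal1 and Gata2 parted. Among bins with 11 to 14 Gata2 tags, the share low in Ldb1 went from 31.0% at 14 to 19 Tal1 tags to 19.8%, 11.6% and 1.58% (7 of 443 bins) over the higher Tal1 steps. Among bins with 14 to 19 Tal1 tags, the share over the Gata2 steps was 31.0% (28.7 to 33.4), 24.0% (21.3 to 26.9), 31.3% (25.4 to 37.7) and 41.9% (24.5 to 60.9), the last from 13 of 31 bins. It did not go down with Gata2 there. At 20 to 29 Tal1 tags it was 19.8%, 16.2%, 15.7% and 7.41% over the same Gata2 steps, the last from 2 of 27 bins. These shares rest on the counts that the rule used and describe 1 set of libraries.

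Within the 1319 bins, Tal1 stood at 11.8 times and Gata2 at 13.8 times its library mean, with 20.8 and 16.2 tags per bin. Tal1 ranged from 14 to 96 tags with a median of 18, and Gata2 from 11 to 78 with a median of 14. Ldb1, held to 0 to 3 tags, still averaged 2.01 tags per bin, 2.55 times its mean, and IgG averaged 0.977 tags, 1.42 times its mean. The bins were compared with those that met the same Tal1, Gata2 and IgG limits and had 4 or more Ldb1 tags (5639 regions of 6370 bins). In the latter IgG stood at 1.38 times its mean, under the same limit of 3 tags per bin. The Ldb1 and IgG files mark mismatches in another way than the Tal1 and Gata2 files, and whether a difference in mapping touched the membership was not tested.

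Regions low in Ldb1 held fewer Tal1 tags than those with Ldb1, and their Gata2 tags were closer. The best bin of a region had a median of 18 Tal1 tags (quartiles 15 and 23) against 26 (19 and 47.5) in regions with Ldb1, a ratio of 0.692. For Gata2 the medians were 14 (12 and 18) and 16 (13 and 21). Each factor was also divided by its library mean. The median of the log2 ratio of Gata2 to Tal1 was then 0.24 in regions low in Ldb1, 0.10 in those with 4 to 9 Ldb1 tags and -0.51 in those with 10 or more. This median thus fell over these 3 groups, while the quartiles overlapped (-0.10 to 0.53, -0.30 to 0.44 and -1.45 to 0.14). The minimums of 14 Tal1 and 11 Gata2 tags are themselves a larger multiple of the library mean for Gata2 than for Tal1. Regions near both minimums therefore lean to Gata2 by the rule, and how far this sets the 0.24 was not tested. Most regions of both kinds were 1 bin long, 1251 of 1284 low in Ldb1 and 5006 of 5639 with 4 or more Ldb1 tags.

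**Figure D2:**
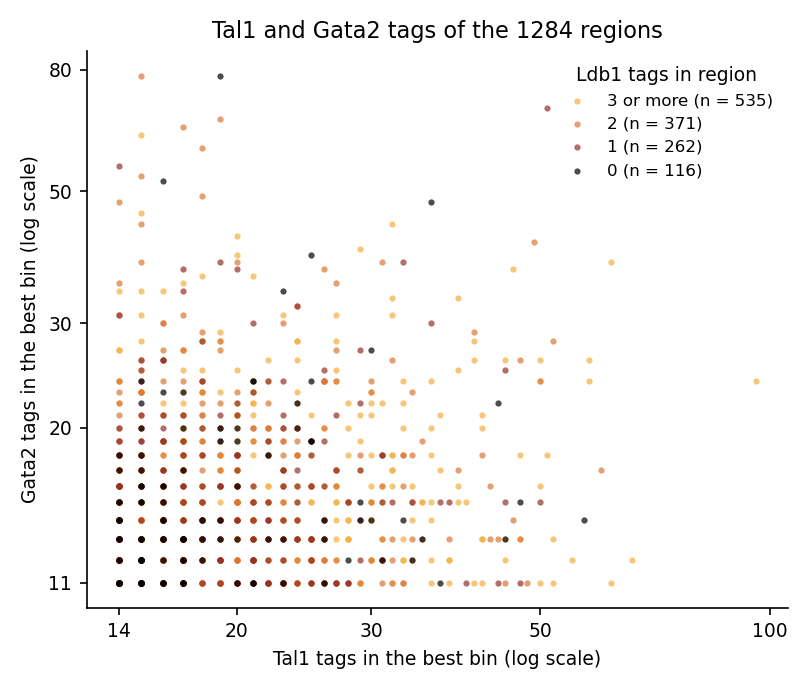
Gata2 tags (y axis) against Tal1 tags (x axis) in the best bin of each of the 1284 regions low in Ldb1, both on log scales, coloured by the Ldb1 tags in the whole region (116 regions with 0, 262 with 1, 371 with 2 and 535 with 3 or more, the latter including joined bins). Points overlap at low counts; most regions lie near both minimums, and a few reach 50 or more tags of 1 factor.

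The few Ldb1 tags inside the regions were not spread evenly over them. The rule limited how many Ldb1 tags a bin had but not where they lay, and so their position can be examined. The summit of a factor was taken as the position with most of its tags within 50 bp. Of 2645 Ldb1 tags, 1472 lay within 100 bp of the Tal1 summit, or 55.7% (53.7 to 57.6). For IgG tags of the same bins the share was 39.2% (36.5 to 41.9), where 35.6% of the bases of the regions lay that close. Gata2 had 58.6% (58.0 to 59.3) of its tags there and Tal1, whose own tags set the summit, 64.1% (63.5 to 64.7). Ldb1 tags were thus more often near the Tal1 summit than IgG tags, by more than the counting error.

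The same held where Ldb1 was low all around. In 659 regions neither the bins beside the region nor the 250 bp on each side of the Tal1 summit held more than 3 Ldb1 tags. There, 56.1% (53.3 to 58.9) of the 1257 Ldb1 tags lay within 100 bp of the summit, against 39.7% (35.9 to 43.6) of the 635 IgG tags. Regions rich in Tal1 but with at most 3 tags of Gata2, Ldb1 and IgG had 60.3% (59.0 to 61.6) of their Ldb1 tags near the Tal1 summit. That share was above that of the regions of Tal1 and Gata2 low in Ldb1 and below the 64.6% (64.3 to 64.9) of those with Ldb1. The latter were not alike: the share was 54.7% (54.02 to 55.4) at 4 to 9 Ldb1 tags and 68.98% (68.6 to 69.3) at 10 or more. The interval at 4 to 9 tags overlapped that of the regions low in Ldb1 and lay below that of Tal1 alone. In regions rich in Gata2 alone the Ldb1 share was 46.6% (43.6 to 49.7) around the Gata2 summit, with IgG at 38.3% (35.0 to 41.6).

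Tags of bound fragments lie on the forward strand before a site and on the reverse strand after it, since each is read from a fragment end. Within 250 bp of the Tal1 summit, 59.7% (58.1 to 61.2) of 3845 Ldb1 tags pointed towards the summit in this way, against 55.2% (52.4 to 58.0) of 1286 IgG tags. The intervals did not overlap but lay close. In the 732 regions with at most 3 Ldb1 tags in the bins beside them, the Ldb1 share was 66.0% (63.6 to 68.3) of 1558 tags and the IgG share 54% (50.2 to 57.7) of 700. Gata2 tags pointed to the Tal1 summit in 66.3% (65.6 to 66.9) of cases over all the regions, and Ldb1 tags in regions of Tal1 alone in 61.4% (60.4 to 62.4). In regions with Ldb1 the Ldb1 share was 64.3% (63.7 to 64.9) at 4 to 9 tags and 76.5% (76.2 to 76.8) at 10 or more. An Ldb1 signal around Tal1 summits was thus measured in regions that by their counts were low in Ldb1.

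**Figure D3:**
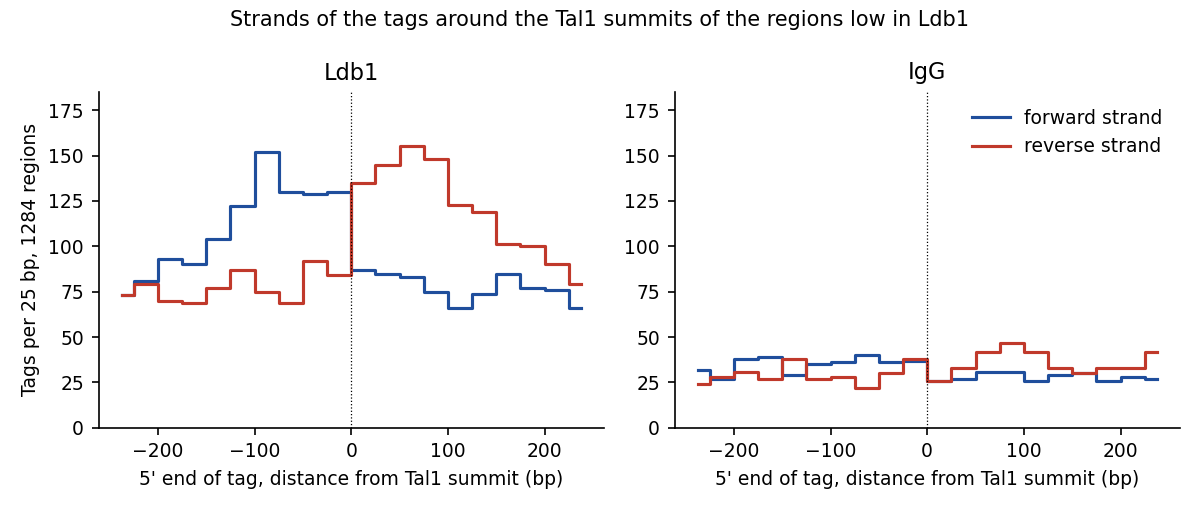
Tags per 25 bp (y axis) by the distance of their 5′ end from the Tal1 summit (x axis, bp), summed over the 1284 regions low in Ldb1, for Ldb1 (left) and IgG (right), forward strand in blue and reverse strand in red. Forward Ldb1 tags reach 152 before the summit and reverse ones 155 after it, and the IgG counts range from 22 to 47.

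Measured over flanks 3 to 5 kb from the region, Ldb1 density was 3.62 and 3.67 times that of the flanks in the 50 bp on either side of the Tal1 summit. In regions with 4 or more Ldb1 tags it was 27.4 and 27.1 times. Tal1 stood at 16.9 and 16.7 times against 32.5 and 32.2 times, and Gata2 at 15 and 15.1 times against 18.8 and 19.5 times. The 2 groups of regions thus differed widely in Ldb1, which the rule fixed, less in Tal1, and least in Gata2. IgG stood at 1.496 and 1.72 times against 1.53 and 1.43 times.

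**Figure D4:**
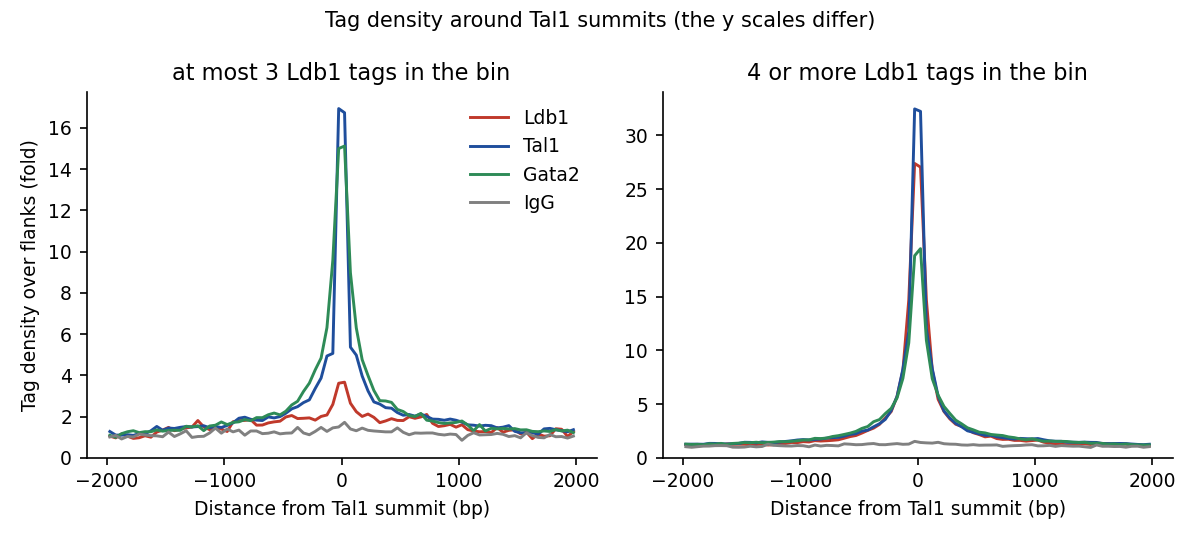
Tag density in steps of 50 bp relative to flanks 3 to 5 kb away (y axis, fold; the scales of the panels differ) by distance from the Tal1 summit (x axis, bp), for regions with at most 3 Ldb1 tags per bin (left) and with 4 or more (right). Ldb1 (red) forms a low peak of 3.67-fold on the left and one of 27.4-fold on the right; the Tal1 summit is by construction the place with most Tal1 tags, which sharpens the blue line.

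The rule looked at Ldb1 inside the bins, and tags outside them were free to differ. From 250 to 1000 bp beyond the region, Ldb1 density was 1.72 times that at 3 to 5 kb (1.67 to 1.77). Tal1 was at 1.85 times (1.82 to 1.88), Gata2 at 1.78 times (1.75 to 1.82) and IgG at 1.18 times (1.14 to 1.23). Beside regions of 4 to 9 Ldb1 tags, Ldb1 stood at 1.78 times (1.75 to 1.81), slightly above the regions low in Ldb1, with intervals that overlapped. Beside regions of 10 or more Ldb1 tags it stood at 1.57 times (1.54 to 1.59). It was 1.43 times (1.41 to 1.46) beside regions of Tal1 alone and 1.10 times (1.054 to 1.14) beside regions of Gata2 alone. The flanks themselves differed: at 3 to 5 kb, Ldb1 stood at 1.55 times its library mean for regions low in Ldb1. It was 1.59 times for 4 to 9 tags, 1.82 for 10 or more, 1.67 for Tal1 alone and 1.35 for Gata2 alone. These ratios therefore do not rank the Ldb1 density itself beside the kinds of region. Among the regions low in Ldb1, the Ldb1 signal beside them was uneven. In the 732 regions with at most 3 Ldb1 tags in each bin beside them, which were picked for low Ldb1 there, the ratio was 1.055 (1.01 to 1.10), with IgG at 1.12 (1.06 to 1.18). Where the Tal1 and Gata2 minimums were raised to 21 and 17 tags, the ratio of the regions low in Ldb1 was 1.35 (1.24 to 1.47).

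Many regions had Ldb1 in the next bin. At least 4 Ldb1 tags lay in a bin directly beside 552 of 1284 regions, or 43.0% (40.3 to 45.8), where 4.99% of all bins with a tag and at most 3 Ldb1 tags had such a neighbour. In 122 regions, or 9.50% (7.95 to 11.2), the neighbour had at least 10 Ldb1 tags. That share was 9.52% (8.77 to 10.3) beside regions with 4 or more Ldb1 tags, with adjacent bins joined. It was 8.22% (7.30 to 9.21) beside regions of Tal1 alone and 1.01% (0.487 to 1.86) beside regions of Gata2 alone. IgG reached 4 tags in a bin beside 63 regions, or 4.91% (3.79 to 6.23). For IgG the share was 4.42% (3.89 to 4.98), 2.82% (2.28 to 3.45) and 2.33% (1.48 to 3.48) in the same compared groups. Of the 552 neighbours with most Ldb1, 295 had at least 14 Tal1 tags and 171 of them also had at least 11 Gata2 tags. The Tal1 summit lay within 100 bp of the region's end in 44.6% (40.4 to 48.8) of the 552 regions, against 28.0% (24.8 to 31.4) of the 732 others. How far the position of the bin's end accounts for the low Ldb1 count of the 552 was not tested.

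The share with Ldb1 in the next bin differed between the kinds of region. It was 50.9% (49.1 to 52.7) at 4 to 9 Ldb1 tags and 62.0% (60.1 to 63.8) at 10 or more. Adjacent bins of these groups were kept as separate regions, so that each could count as the other's neighbour. With such bins joined, the share was 50.8% (49.4 to 52.1) over all regions with 4 or more Ldb1 tags. Joining takes neighbours of this kind into the region, so that they no longer count. Of the regions low in Ldb1, 171 touched such a bin, which did count, and so the 50.8% and the 43.0% are not like for like. Regions of Tal1 alone had 29.6% (28.0 to 31.2) and regions of Gata2 alone 13.3% (11.2 to 15.6). Leaving out the joined group, none of these intervals overlapped another or that of the regions low in Ldb1. Counted around the Tal1 summit instead of in bins, 970 of the 1284 regions, or 75.5% (73.1 to 77.9), had at most 3 Ldb1 tags within 250 bp, and the highest had 33.

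**Figure D5:**
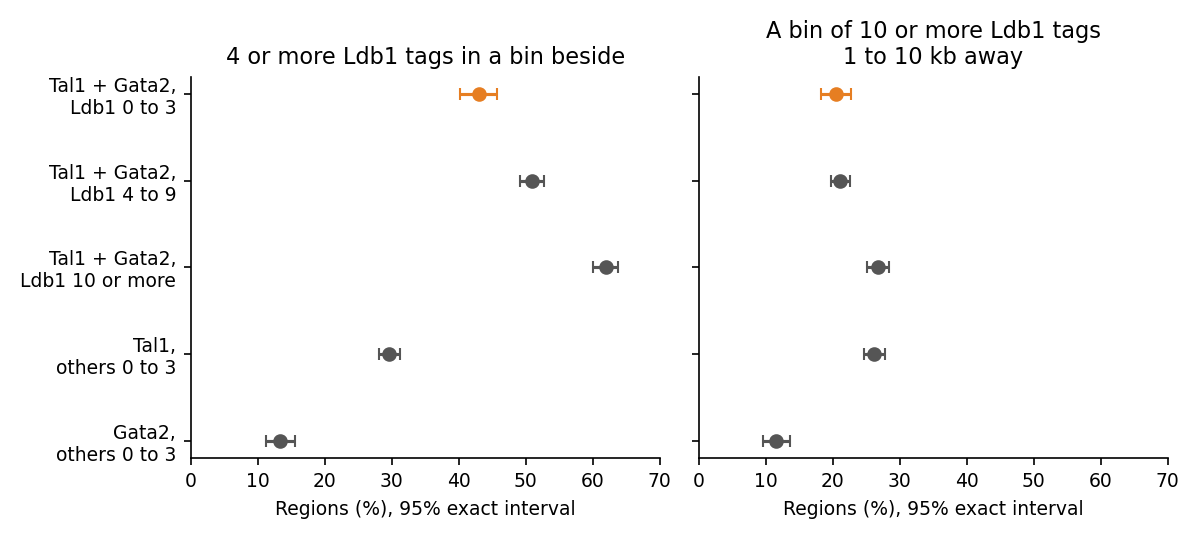
Share of regions (x axis, percent, with 95% exact intervals) that had 4 or more Ldb1 tags in a bin directly beside them (left) or a bin with at least 10 Ldb1 and at most 3 IgG tags 1 to 10 kb away (right), for 5 kinds of region by their tags in the bin (y axis). Regions low in Ldb1 (orange) lie at 43.0% and 20.4%, between regions of Gata2 alone (13.3% and 11.5%) and regions with 10 or more Ldb1 tags (62.0% and 26.7%).

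Further out, Ldb1-rich bins lay about as often near regions low in Ldb1 as near regions with 4 to 9 Ldb1 tags, within counting error. A bin with at least 10 Ldb1 tags and at most 3 IgG tags lay within 10 kb of 369 regions, or 28.7% (26.3 to 31.3), against 5.02% of bins with a tag and at most 3 Ldb1 tags. With repeated tags counted, the rule gave 1498 regions, and these shares were 52.2% (49.6 to 54.8) and 16.7%. Leaving out the nearest 1 kb, the share was 20.4% (18.2 to 22.7) for regions low in Ldb1, where the background was 4.69%, and 21.1% (19.7 to 22.6) for regions with 4 to 9 Ldb1 tags, where 4.92% of all bins with a tag had one. Regions of Tal1 alone had 26.2% (24.7 to 27.7) and regions of Gata2 alone 11.5% (9.54 to 13.6). The Ldb1 density 3 to 5 kb away was 1.55 times the library mean beside regions low in Ldb1, 1.59 times beside those with 4 to 9 tags and 1.35 times beside those of Gata2 alone. At 20 to 50 kb it was still 1.398, 1.44 and 1.27 times, with IgG between 0.99 and 1.02 times its mean in these 3 groups.

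Tal1 and Gata2 summits lay close together without much Ldb1. In the 1251 regions of 1 bin the median distance between them was 42 bp (39 to 46, quartiles 17 and 103), and 54.8% (52.0 to 57.6) were within 50 bp. The 5006 regions of 1 bin with Ldb1 had the same median of 42 bp (40 to 44), with 56.0% (54.6 to 57.4) within 50 bp. Among these, the median was 49 bp (45 to 52) at 4 to 9 Ldb1 tags and 36 bp (34 to 39) at 10 or more, so that regions low in Ldb1 lay between the 2 groups. A summit is placed better where there are more tags, and so bins of like Tal1 count were also compared. At 14 to 19 Tal1 tags the medians were 48 bp (42 to 54) for regions low in Ldb1 and 58.5 bp (54 to 63) for regions with Ldb1. At 20 to 29 tags they were 39 bp (36 to 48) and 57 bp (54 to 62), and at 30 or more 29 bp (22 to 36) and 27 bp (25 to 29).

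The intervals did not overlap at 20 to 29 Tal1 tags, where the summits were nearer to each other in regions low in Ldb1, and Gata2 counts were not matched. Among the regions low in Ldb1, those with Ldb1 in a bin beside them had a larger distance, 56 bp (49 to 64) against 36 bp (34 to 39). More than 200 bp separated the summits in 137 regions, or 10.95% (9.27 to 12.8), close to the 11.8% (10.9 to 12.7) of regions with Ldb1.

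Regions were also ranked by the enrichment of whichever of Tal1 and Gata2 was the weaker there, over its library mean. The highest lay on chromosome 3 from 60501501 to 60502000, with 62 Tal1, 38 Gata2, 3 Ldb1 and 1 IgG tags, or 35.1 and 32.3 times the Tal1 and Gata2 means, and with summits 1 bp apart. Bins of 50 or more Tal1 tags had a median of 22 Ldb1 tags, against its 3, and the bins beside it had 0 and 1. The second, on chromosome 4 from 94540501 to 94542000, was 3 bins long with 106 Tal1 and 118 Gata2 tags but 1 Ldb1 and 2 IgG tags. Its Tal1 and Gata2 summits lay 2 bp apart and no Ldb1 tag lay within 250 bp of the former, while a bin beside it had 8 Ldb1 tags. It was 1 of the 2 regions of 3 bins and had the third-highest Gata2 count in a bin (69 tags).

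The other 8 of these 10 regions had 41 to 58 Tal1 and 26 to 41 Gata2 tags in the best bin. On chromosome 13 from 85600501 to 85601000 there were 49 Tal1, 41 Gata2 and 2 Ldb1 tags, but the bin before it held 15 Ldb1 tags. The bin after it held 3, but 9 Ldb1 tags lay within 250 bp of its Tal1 summit. On chromosome 10 from 18752001 to 18752500 there were 46 Tal1, 37 Gata2, 3 Ldb1 and 3 IgG tags, with 4 and 1 Ldb1 tags in the bins beside. The regions on chromosome 3 from 79993001 to 79993500 and from 144987001 to 144987500 had 58 and 50 Tal1 tags, 26 Gata2 tags each and 3 Ldb1 tags each. In both, the bins beside had 0 and 1 Ldb1 tags.

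A region on chromosome 19 (38119001 to 38119500) had 52 Tal1, 28 Gata2 and 2 Ldb1 tags, with 5 Ldb1 tags in a bin beside. On chromosome 11 (107964501 to 107965000), 41 Tal1, 29 Gata2 and 2 Ldb1 tags were counted and the summits lay 1 bp apart. On chromosome 13 (112917501 to 112918000) there were 41 Tal1, 28 Gata2 and 3 Ldb1 tags, with 5 and 6 Ldb1 tags beside. The last of the 10, on chromosome 3 (106020001 to 106021000), held 75 Tal1, 37 Gata2 and 5 Ldb1 tags in 2 joined bins, and its summits were 809 bp apart. These regions thus held different layouts, from summits within a few base pairs to separate places in joined bins.

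Some regions leaned strongly to 1 factor. The most Tal1 tags in a bin were found on chromosome 3 from 37851001 to 37851500, with 96 Tal1, 24 Gata2, 3 Ldb1 and 0 IgG tags. Only 1 and 0 Ldb1 tags lay in the bins beside it. The next, on chromosome 4 from 128758501 to 128759000, had 66 Tal1 and 12 Gata2 tags, 3 Ldb1 tags and no IgG tag, where a count of 0 allows up to 3. By Gata2, 2 regions had 78 tags. The region on chromosome 2 from 118942001 to 118942500 had 15 Tal1, 2 Ldb1 and 1 IgG tags, and that on chromosome 10 from 19628501 to 19629000 had 19 Tal1, 0 Ldb1 and 2 IgG tags. They were 66.4 times the Gata2 mean but 8.49 and 10.8 times the Tal1 mean.

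The other 2 long regions lay on chromosome 2 from 34599501 to 34601000, with 55 Tal1, 48 Gata2, 4 Ldb1 and 4 IgG tags over 3 bins and summits 1251 bp apart, and on chromosome 13 from 105132501 to 105133500, with 76 Tal1, 31 Gata2, 3 Ldb1 and 3 IgG tags over 2 bins. Regions with no Ldb1 tag at all were also counted, without a share over other bins to set them against. There was none in 116 regions, or 9.03% (7.52 to 10.7), and none in the region and the 1 kb on each side in 3, or 0.234% (0.0482 to 0.681). The best of these, on chromosome 13 (110384501 to 110385000), had 25 Tal1, 24 Gata2 and 0 IgG tags. The others were on chromosome 12 (99469001 to 99469500), with 31 Tal1, 12 Gata2 and 1 IgG tag, and on chromosome 19 (11867501 to 11868000), with 16 Tal1, 23 Gata2 and 0 IgG tags. Their Tal1 and Gata2 summits were 5, 44 and 46 bp apart. Counting the region itself and 5 kb on each side, every one of the 1284 regions had at least 1 Ldb1 and 1 IgG tag. The share of all bins with such tags is not given, and for Tal1 and Gata2 the rule fixed the outcome.

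Regions low in Ldb1 were found on all 19 chromosomes, from 28 on chromosome 18 to 115 on chromosome 11. Set against the regions with Ldb1, they made up 18.5% (17.6 to 19.5) of the regions of both kinds. This share was highest on chromosomes 10, with 101 regions and 24.5% (20.4 to 28.96), and 14, with 52 regions and 24.3% (18.7 to 30.6). It was lowest on chromosome 15, with 42 regions and 14.2% (10.4 to 18.7). The intervals of chromosomes 10 and 14 lay above the overall share and those of the other 17 held it. Regions in a chromosome are not independent, and the chromosomes were picked after their values were seen.

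The median distance from a region to the nearest other region low in Ldb1 was 252.75 kb. Another lay within 10 kb of 129 of them, or 10.05% (8.46 to 11.8). For the more numerous regions with Ldb1, measured to the nearest of their own kind, these values were 41.5 kb and 21.7% (20.7 to 22.8). The bin nearest to a region low in Ldb1 with the same Tal1, Gata2 and IgG limits and 4 or more Ldb1 tags was a median of 36 kb away. Such a bin touched 171 regions, or 13.3% (11.5 to 15.3), and no share over other bins is given. There were more such bins, which shortens this distance. The densest 1 Mb held 11 regions on chromosome 19, from 5023501 to 5845000, together with 28 regions with Ldb1. In 9 of these 11, a bin beside had at least 4 Ldb1 tags. The largest of the 11, from 5840001 to 5841000, had 70 Tal1, 96 Gata2, 0 Ldb1 and 1 IgG tags in 2 bins, and a bin on each side had 4 Ldb1 tags.

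Membership depended on where the bins began. With bins shifted by 250 bp the rule gave 1291 regions, but only 483 of the 1284, or 37.6% (35.0 to 40.3), shared a base with any of these. Of the 801 lost, 325 had a shifted bin at the Tal1, Gata2 and IgG limits with over 3 Ldb1 tags, and 476 had no bin at those limits. The number of regions was 770 with at most 2 Ldb1 tags, 123 with none, 797 with 1 to 3 IgG tags and 163 with the higher Tal1 and Gata2 minimums. Repeated tags mattered too: 496 of the 1319 bins, or 37.6%, had 4 or more Ldb1 tags as deposited. Over all bins with a tag, 4175939 had at most 3 Ldb1 tags without repeats and 3836062 with repeats counted.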

How the data were processed

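Tags of 4 libraries, 1 per antibody, were used as deposited by the authors: 1 line per aligned tag, not normalized, in mm8, a build that the submitters' processing notes name. No aligner is named in these sources. The deposited score column was 0 throughout for Ldb1 and IgG and varied for Tal1 and Gata2, whose files also mark mismatches differently, and the rule for the regions sets the first pair against the second. Scores were left aside. Tal1 tags had 36 bp, all other tags 25 bp. The deposited files held 6042990 Ldb1, 11134890 Tal1, 7053702 Gata2 and 5156509 IgG tags. On chromosomes 1 to 19, 33.0%, 18.4%, 14.1% and 30.1% repeated a position and strand and were dropped. The 5′ ends were moved by 54 bp along the strand and counted in 500 bp bins from position 0.

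Compared regions met the same rule with 4 or more Ldb1 tags, or had at least 14 Tal1 or 11 Gata2 tags and at most 3 of each other library. Summits had most tags within 50 bp, inside the region. Shares have 95% exact Clopper-Pearson intervals, tag ratios exact conditional binomial ones, and medians exact order-statistic ones. Named regions were the 10 with the largest lower fold of Tal1 and Gata2 over the library means, the 3 with most Tal1 or Gata2 tags, the 3 longest, the 3 best without an Ldb1 tag within 1 kb, and the densest 1 Mb. The strand, chromosome, spacing, step and 1 to 10 kb comparisons and those within 250 bp of a summit were added after values had been seen. The members and lists were chosen with earlier results of these data known. Planned motif counts need a genome of build mm8 and were not made. Scripts ran in Python 3.11.15 with numpy 2.4.6 and scipy 1.17.1 and were tested on simulated data.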

Additional observations from a re-analysis of the deposited data

How the results depend on the processing

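The 7 planned results were recomputed under 8 alternatives. Of the 55 values, 27 stayed within the interval of the reported value (for the number of regions, within 1.5 times) and 28 moved beyond it. A direction was defined only for Ldb1 density beside the regions and for the ratio of median Tal1 tags. It changed in none of their values. The number of regions, the shares and the summit distance had no direction that could change. The number of regions was 770 with at most 2 Ldb1 tags, 123 with no Ldb1 tag, 797 with 1 to 3 IgG tags and 163 with at least 21 Tal1 and 17 Gata2 tags. Ldb1 density beside the regions was 1.62 with bins starting at position 250, 1.66 with repeats counted, 1.77 with at most 2 Ldb1 tags, 1.89 with none, 1.78 with 1 to 3 IgG tags and 1.35 with the higher minimums. The share of Ldb1 tags within 100 bp of the Tal1 summit was 49.8% with tags not moved, 53.1% with repeats and 62.6% with the higher minimums. The median distance between Tal1 and Gata2 summits was 57, 52 and 33 bp under the same 3 alternatives. The share with at least 4 Ldb1 tags in a bin beside was 56.9% with repeats, 37.7% with tags without a mismatch, 40.3% with at most 2 Ldb1 tags, 36.6% with none and 39.3% with the higher minimums. The share within 10 kb of an Ldb1-rich bin was 52.2% with repeats, 23.1% with tags without a mismatch and 21.1% with no Ldb1 tag. The ratio of median Tal1 tags to that of regions with Ldb1 was 0.667 with the shifted bins, 0.679 with repeats, 0.654 with no Ldb1 tag and 0.659 with the higher minimums. Changed limits and minimums also change which bins are kept. The cause of a moved value was not tested for any of the alternatives. The planned motif counts were not run. No paired analysis was possible because each antibody had 1 library. At a mean of 0.785 Ldb1 tags per bin, 3 tags or fewer cannot show that Ldb1 was absent. Read with the IgG library in place of Tal1 and Gata2, a minimum scaled to its depth (7 tags) and at most 3 Ldb1 tags were met by 651 bins, all of which the IgG limit of the rule leaves out.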

Other observations

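Chromosome X lay outside the rule. Under the same limits it held 9 regions low in Ldb1, with 171 Tal1, 129 Gata2, 15 Ldb1 and 7 IgG tags in all, and 42 regions with 4 or more Ldb1 tags. The share low in Ldb1 was 17.6% (95% exact interval 8.40 to 30.9), and the 18.5% of chromosomes 1 to 19 lay within that interval. On this chromosome 58 bins reached 7 IgG tags with at most 3 Ldb1 tags.

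In the regions low in Ldb1, the share of tags without a mismatch was 82.1% for Ldb1 and 72.1% for IgG, against 78.5% and 69.3% over chromosomes 1 to 19. For Tal1 it was 92.4% against 91.9%, and for Gata2 96.2% against 95.6%. Repeats made up 34.7% of the Ldb1, 20.04% of the Tal1, 16.6% of the Gata2 and 29.3% of the IgG tags deposited in these bins.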
